A study of Mus musculus with 2 samples.

Results

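Hmox1, Blvrb, Fth1, Ftl1, Slc40a1, Trf and Tfrc code for proteins that break down heme and that store, export, carry and take up iron. They were chosen by symbol and are 7 of the 24984 genes in the deposited count tables, each found as 1 row. Their transcripts were counted in single cells of hind limb muscle of young adult mdx mice, in 1 library labelled Ctrl and 1 labelled dKO. The Ctrl mice were Pax7 CreERT2/R26YFP; Yy1 +/+; mdx, and the dKO mice were Pax7 CreERT2/R26YFP; Yy1 f/f; mdx. All mice lacked dystrophin and received tamoxifen, which removes the transcription factor Yy1 in dKO mice only in cells that express Pax7, the muscle stem cells (MuSCs). Muscles were taken a month after tamoxifen, the cells of 3 mice were pooled for each library, red blood cells were lysed, and live cells were sorted before droplet capture on the 10x Chromium platform. The cells described are therefore mainly cells in which Yy1 was not targeted, from muscles whose MuSCs lost it.

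Heme released from hemoglobin and myoglobin is split by heme oxygenase into biliverdin, carbon monoxide and iron. The freed iron is kept in ferritin, a shell of heavy and light chains, or leaves the cell through ferroportin, and iron enters most cells as transferrin bound to the transferrin receptor. In muscle, macrophages that clear damaged fibers and extravasated blood carry much of this traffic. Ferritin, ferroportin and transferrin receptor mRNAs carry iron-responsive elements, hairpins bound by iron regulatory proteins when iron is scarce. Binding near the start of an mRNA blocks its translation, and binding near its end protects it from decay. Transcription of Hmox1 and of the ferritin genes is held back by Bach1 and driven by Nrf2, the product of Nfe2l2.

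The hairpins are shown because their place differs between members. Those of Tfrc act on the decay of its mRNA. Those of Fth1, Ftl1 and Slc40a1 act on translation, and that hairpin control is not seen in transcript counts. They were found by searching the sense strand of GENCODE transcripts (GRCm38, the build named mm10) for CAGTGN with 5 bases on each side that can pair with each other, G with U pairs allowed, and an unpaired C before the 5′ arm. Each is 30 bases long, printed 5′ to 3′ with the 6 bases of the loop in capitals and with T for U. The 5′ UTR elements lie in exon 1 at chr1:45925464-45925493 on the minus strand for Slc40a1, chr19:9982732-9982761 on the plus strand for Fth1 and chr7:45459778-45459807 on the minus strand for Ftl1. The 4 Tfrc elements lie on the plus strand in the 3′ UTR, in exon 19 of 19, at chr16:32631219-32631248, chr16:32631598-32631627, chr16:32631663-32631692 and chr16:32631710-32631739.
Slc40a1 5′ UTR: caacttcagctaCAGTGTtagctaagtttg
Fth1 5′ UTR: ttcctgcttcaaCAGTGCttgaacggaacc
Ftl1 5′ UTR: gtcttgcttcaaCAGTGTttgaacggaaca
Tfrc 3′ UTR site 1: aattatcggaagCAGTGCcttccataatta
Tfrc 3′ UTR site 2: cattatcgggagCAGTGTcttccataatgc
Tfrc 3′ UTR site 3: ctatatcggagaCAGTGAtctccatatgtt
Tfrc 3′ UTR site 4: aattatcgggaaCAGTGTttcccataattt
The same pattern was present in the 5′ UTR of 31 of 20899 genes (0.148%) and in the 3′ UTR of 129 of 21028 genes (0.613%). These letters were absent from the UTRs of the Hmox1, Trf and Blvrb transcripts searched. A match describes a sequence and is not evidence of binding in these cells.

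The genes lie at chr8:75093621-75100589 (Hmox1, plus strand), chr7:27447978-27466144 (Blvrb, plus), chr19:9980598-9985098 (Fth1, plus), chr7:45457944-45459884 (Ftl1, minus), chr1:45908068-45926523 (Slc40a1, minus), chr9:103204001-103230444 (Trf, minus) and chr16:32608920-32632794 (Tfrc, plus). Both ferritin genes have processed pseudogenes in the mouse genome, so their levels are uncertain to the extent that reads were assigned between copies. No Ftl1 pseudogene had a row of its own.

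The Ctrl and dKO libraries held 4527 and 3483 cells with 45556596 and 33815155 unique molecular identifiers (UMIs, each 1 captured transcript), and 4010 and 3079 cells were kept. They shared 7 cell barcodes. Cells were grouped by clustering and named by marker genes. The names used are fibro-adipogenic progenitors (FAPs, 1086 Ctrl and 1143 dKO cells), monocytes and macrophages (MO/MPs, 1321 and 1009), endothelial cells (ECs, 466 and 179), and 10 smaller classes with at least 20 cells in each library. A cluster led by Ear2 (99 and 121 cells, 2.47% and 3.93% of the libraries) was kept apart from the MO/MP class. Yy1 in MuSC-like cells was at 369 UMIs in 117 Ctrl cells (160 CPM) and at 3 UMIs in 30 dKO cells (4.85 CPM). Levels are given as CPM, the UMIs of a gene summed over the cells of a class and given per 1000000 UMIs of that class, not divided by transcript length, with exact Poisson 95% intervals. Ratios are dKO over Ctrl with exact conditional 95% intervals, and all intervals cover counting error only. With 1 library a group, no difference could be tested against the spread between mice.

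Hmox1, the inducible heme oxygenase that opens the heme ring, was high in phagocytes and ECs, and of the 3 largest classes it differed most between the libraries in ECs. In ECs it stood at 1133 CPM (3031 UMIs) in Ctrl and 1898 CPM (1654 UMIs) in dKO, a ratio of 1.67 (1.58 to 1.78). In FAPs it stood at 367 CPM in Ctrl and 510 CPM in dKO, a ratio of 1.39 (1.34 to 1.44). In MO/MPs it stood at 1568 CPM in Ctrl and 1715 CPM in dKO, a ratio of 1.09 (1.07 to 1.12). The dKO library was thus the higher in all 3 of the large classes, by a step that was small in MO/MPs. Part of each ratio went with the mix of clusters in the class. With the dKO clusters weighted by the share of class UMIs that each held in Ctrl, the ratio was 1.49 in ECs, 1.33 in FAPs and 1.01 in MO/MPs. Over both libraries as a whole Hmox1 was at 828 and 876 CPM.

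The order of classes by Hmox1 level shifted with the EC difference. In Ctrl the Ear2 cluster came first at 1981 CPM, followed by MO/MPs, neutrophil-like cells at 1274 CPM and ECs, and the intervals of the latter pair overlapped. In dKO the ECs came first, and their interval overlapped that of the Ear2 cluster at 1761 CPM, which overlapped that of MO/MPs. B cell-like cells (24.7 and 15.5 CPM) and T cell-like cells (19.7 and 16.5 CPM) were lowest in both libraries, with 4 to 9 UMIs each. These lymphocytes are not known for heme breakdown, and the part of free RNA in their Hmox1 level was not tested.

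**Figure D1:**
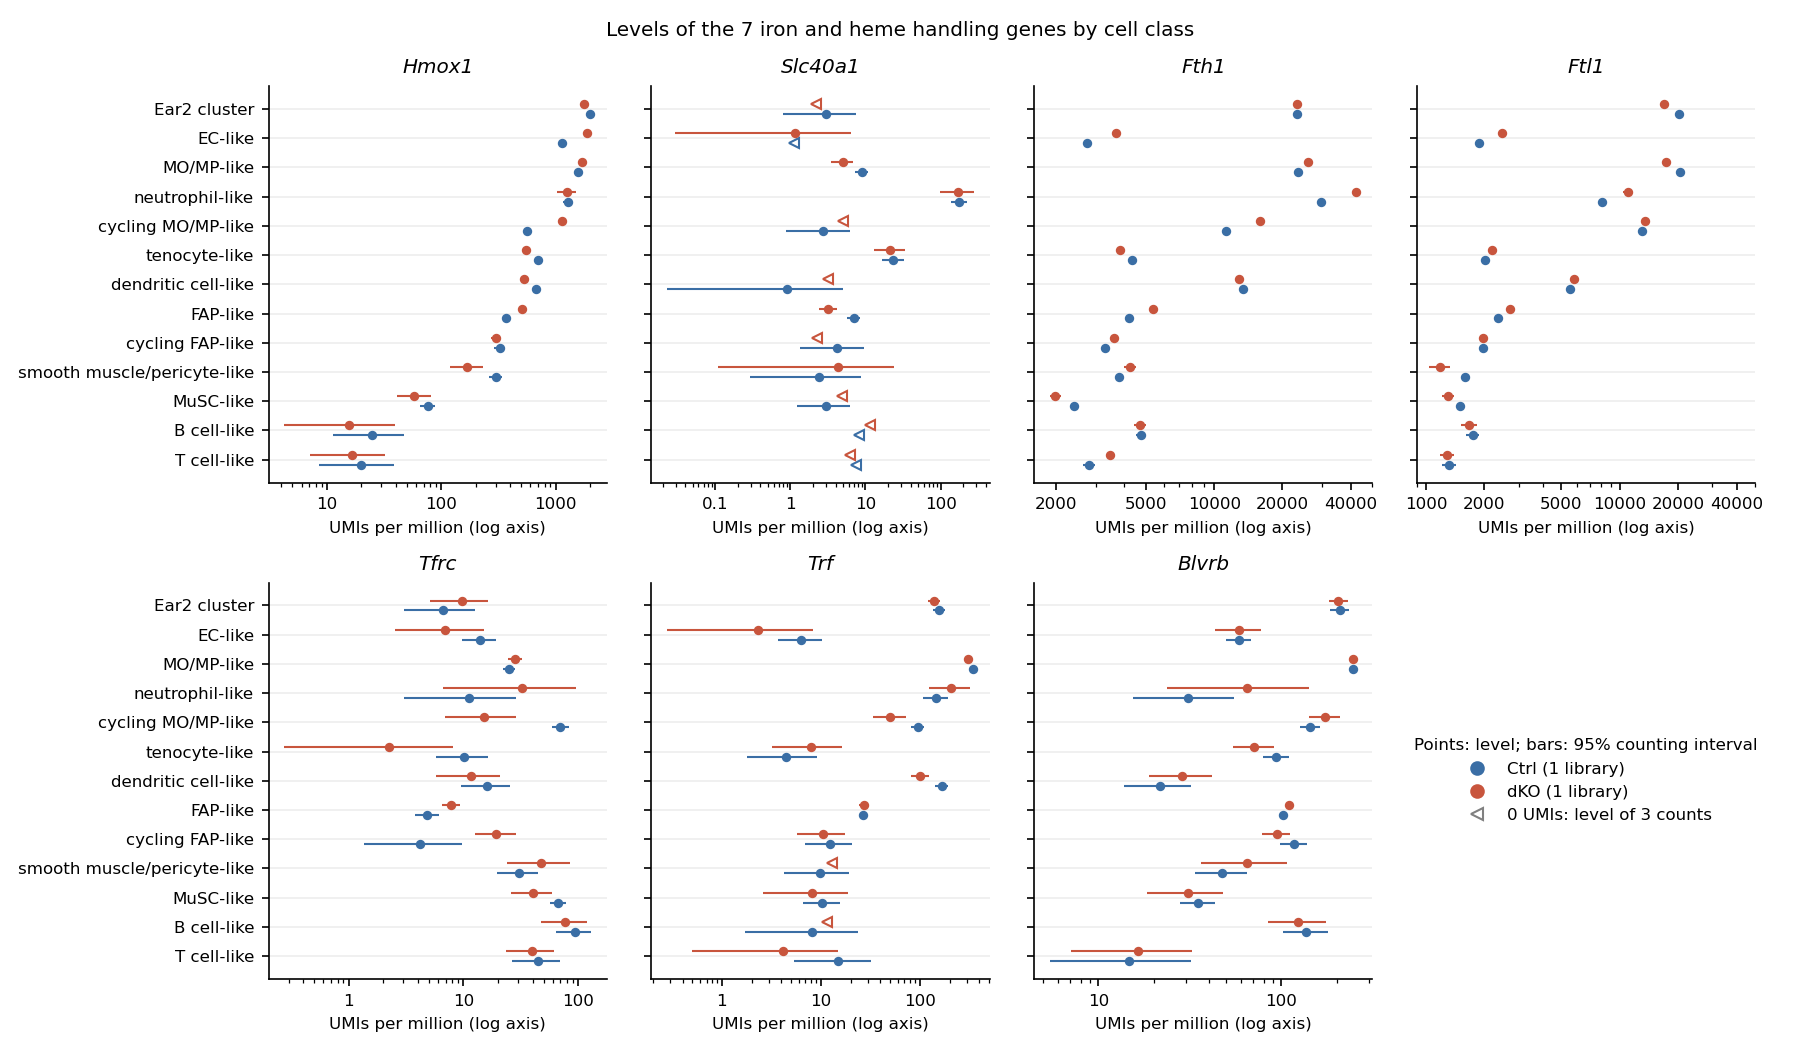
Levels of the 7 genes in CPM (log axis) in each cell class, with 1 point per library (Ctrl and dKO) and bars for exact Poisson 95% intervals. Open symbols stand for classes with 0 UMIs and are placed at the level of 3 counts. Fth1 and Ftl1 are highest in phagocytes, and Slc40a1 is highest in neutrophil-like cells at 177 CPM in Ctrl and 173 CPM in dKO.

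The share of cells with an Hmox1 UMI was compared at a matched depth of 2000 UMIs a cell. Cells with fewer UMIs were dropped, which were 67 and 36 ECs, 63 and 54 FAPs, and 148 and 105 MO/MPs in Ctrl and dKO. It was 39.8% in Ctrl and 51.0% in dKO ECs, 31.9% and 37.0% in FAPs, and 61.5% and 66.2% in MO/MPs. It was 5.32% and 2.68% in T cell-like cells and 3.06% and 4.23% in B cell-like cells. Without thinning the shares were 50.4% and 49.2% in ECs, whose median depths were 4698 and 3802 UMIs, and 6.78% and 5.11% in T cell-like cells at median depths of 3218 and 3089. The EC shares thus differed only at matched depth, where their binomial intervals (35.0% to 44.8% and 42.6% to 59.5%) still overlapped. In FAPs, with median depths of 11856 and 11897 UMIs, the unthinned shares were 58.3% and 60.3%.

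Within a class the Hmox1 difference sat in particular clusters, each named here by its leading gene. Among MO/MPs, the Fcna cluster, the only one in which Cd163 (the receptor for hemoglobin bound to haptoglobin) exceeded 10 CPM, was at 1663 CPM in Ctrl and 2926 CPM in dKO, a ratio of 1.76 (1.65 to 1.88). The Slpi cluster, which also expressed the monocyte genes Ly6c2 and Chil3, had the highest level of all and was lower in dKO, at 4304 and 3973 CPM (ratio 0.923, 0.891 to 0.956). The Apoe cluster was at 921 and 860 CPM (0.934, 0.893 to 0.977) and the Spp1 cluster at 1154 and 1172 CPM (1.02, 0.962 to 1.07). The Fcna cluster was thus the 1 of the 4 whose interval lay above 1. That cluster held 18.5% of the Ctrl and 18.0% of the dKO cells of the class but 7.504% and 10.5% of its UMIs, and the Slpi cluster 15.5% and 18.2% of the UMIs. Both have high Hmox1 levels, so the larger UMI shares raise the class level of dKO apart from any difference within a cluster. After thinning, 56.8% (48.4% to 64.9%) of 148 Ctrl and 75.6% (67.3% to 82.7%) of 131 dKO cells of the Fcna cluster had an Hmox1 UMI, against 84.2% and 83.8% in the Slpi cluster. In the Apoe cluster the share was 49.3% and 57.1%, higher in dKO where the CPM was lower, and in the Spp1 cluster 69.6% and 61.7%, and the intervals of both pairs overlapped.

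ECs and FAPs showed the same unevenness. In ECs the ratio was 1.56 (1.38 to 1.76) in the capillary-like Gpihbp1 cluster, from 667 to 1042 CPM, and 1.63 (1.51 to 1.76) in the Selp cluster, from 1877 to 3060 CPM. In the Cytl1 cluster it was 0.866 (0.736 to 1.02), with 64 Ctrl and 32 dKO cells. The class ratio of 1.67 exceeded that of every EC cluster, since the clusters held different shares of EC UMIs, at 58.2% in Ctrl and 40.2% in dKO for Gpihbp1, 30.5% and 39.6% for Selp and 11.4% and 20.2% for Cytl1. In FAPs the Cxcl13 cluster, in which Pi16 and Dpp4 were expressed, stood at 677 CPM in Ctrl and 1217 CPM in dKO (1.80, 1.66 to 1.95), the Inmt cluster at 293 and 417 CPM (1.42, 1.348 to 1.502) and the Cxcl5 cluster at 402 and 420 CPM (1.04, 0.985 to 1.10). The 2 clusters of ECs and the 2 of FAPs with most of the difference thus lay from 1.42 to 1.80. Their shares of cells with an Hmox1 UMI at matched depth were higher in dKO with overlapping intervals, at 33.6% and 37.9% in the Gpihbp1, 49.5% and 68.8% in the Selp, 48.8% and 54.8% in the Cxcl13 and 25.8% and 30.8% in the Inmt cluster. The sum of the MO/MP markers was lower in dKO in ECs and FAPs though single markers were higher, and their part in the result was not tested. The summed level of the 10 MO/MP markers was 123 CPM in Ctrl and 97.5 CPM in dKO ECs (3 of 10 higher in dKO) and 79.4 and 63.4 CPM in FAPs (2 of 10 higher). The 10 MuSC markers summed to 437 and 832 CPM in ECs (3 of 10 higher in dKO) and to 418 and 530 CPM in FAPs (2 of 10 higher), and their part in the result was not tested.

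**Figure D2:**
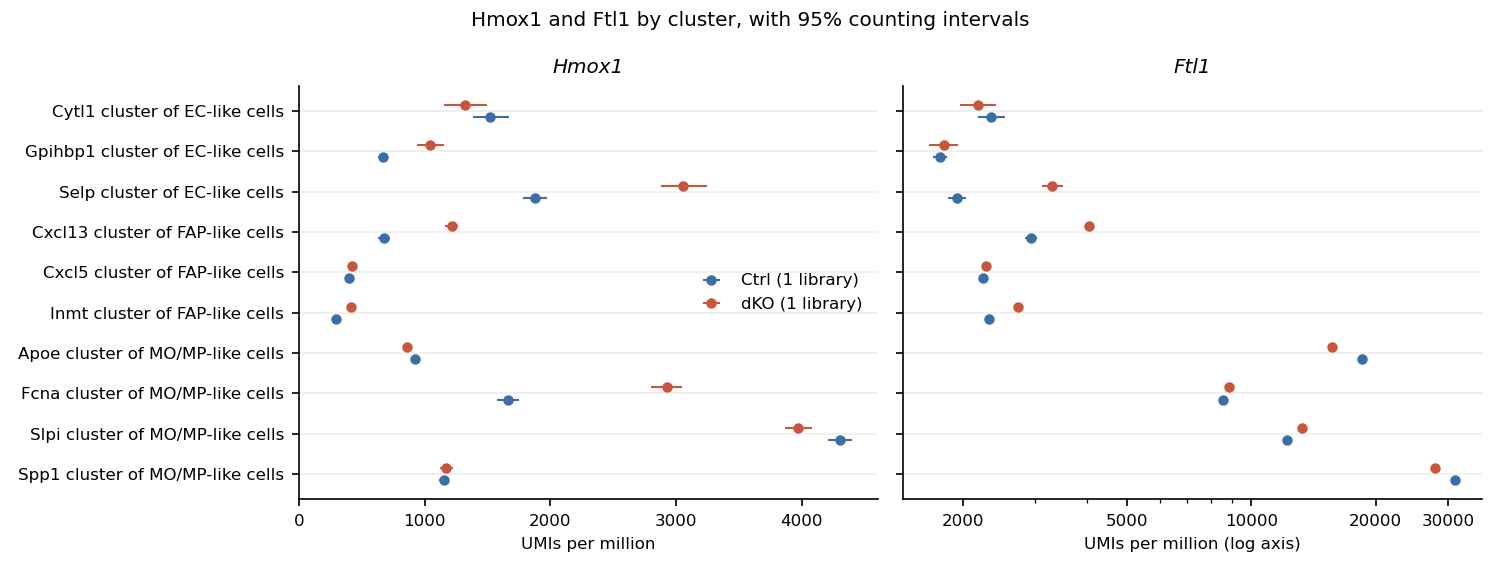
Hmox1 (linear axis, CPM) and Ftl1 (log axis, CPM) in the 10 clusters of ECs, FAPs and MO/MPs, with 1 point per library and bars for exact Poisson 95% intervals. For Hmox1 the Slpi cluster of MO/MPs is highest in both libraries, and the Fcna, Cxcl13, Selp and Gpihbp1 clusters are higher in dKO.

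In the other classes the Hmox1 difference had no single direction. Of 13 classes the interval of the ratio lay above 1 in 4 (ECs, FAPs, MO/MPs and cycling MO/MPs), below 1 in 4 (the Ear2 cluster, dendritic cell-like, smooth muscle/pericyte-like and tenocyte-like cells) and held 1 in 5. In the Ear2 cluster the log2 ratio of -0.17 turned to 0.20 as the mean of each cell's CPM. In cycling MO/MPs it was at 558 CPM in 104 Ctrl cells and 1133 CPM in 36 dKO cells, a ratio of 2.03 (1.84 to 2.24). The Ctrl cells of that class also held neutrophil transcripts, with a summed neutrophil marker level of 25519 CPM against 386 CPM in dKO, and without the cells with at least 10 UMIs of Camp and Ngp (95 and 36 cells left) the ratio was 1.92 (1.74 to 2.12). Of the 676 dKO UMIs 220 came from 1 cell, and of the 1036 Ctrl UMIs 126, and the ratio was 1.65 without the top cell of each library. At a matched depth of 2000 UMIs, 40.8% of 103 Ctrl and 44.1% of 34 dKO cells had an Hmox1 UMI, with overlapping intervals. In smooth muscle/pericyte-like cells the 39 dKO UMIs (168 CPM, against 299 CPM in Ctrl) came to 19 from 1 cell. The ratio of 0.563 (0.391 to 0.791) was 1.24 when no doublets were removed. The 9 EC markers of that class summed to 7337 CPM in Ctrl and 4108 CPM in dKO (0 of 9 higher in dKO). Their part in the result was not tested. In tenocyte-like cells the levels were 701 and 555 CPM and in dendritic cell-like cells 669 and 531 CPM. In tenocyte-like cells the summed MO/MP markers were at 76.6 and 33.9 CPM and the neutrophil markers at 45.0 and 7.90 CPM. Their part in the result was not tested.

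Blvrb, a biliverdin reductase that also reduces flavins, differed little. It was at 246 CPM in Ctrl and 247 CPM in dKO MO/MPs, the highest class, and at 58.3 and 58.5 CPM in ECs. In FAPs it was at 102 and 110 CPM, a ratio of 1.08 (1.01 to 1.16), the 1 class of 13 whose interval did not hold 1. After thinning, 33.2% of Ctrl and 32.1% of dKO MO/MPs had a Blvrb UMI, against 24.5% and 22.5% of B cell-like cells, where Blvrb was at 137 and 124 CPM, and 2.13% and 1.79% of T cell-like cells. In the Fcna cluster, where Hmox1 differed most among MO/MPs, Blvrb stood at 318 and 377 CPM (1.19, 1.00 to 1.41).

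The 2 ferritin chains were abundant, together 4.39% of all UMIs in Ctrl and 4.32% in dKO MO/MPs, and they differed in opposite directions over that class as a whole. Fth1, the heavy chain that oxidizes iron as it enters the shell, was at 23481 CPM in Ctrl and 25976 CPM in dKO MO/MPs (1.11, 1.10 to 1.11). Ftl1, the light chain that aids deposition of the iron core, was at 20394 CPM in Ctrl and 17272 CPM in dKO (0.847, 0.841 to 0.853). By cluster, Ftl1 was lower in dKO in the Apoe cluster (0.845, 0.836 to 0.853) and the Spp1 cluster (0.895, 0.885 to 0.905) and higher in the Slpi cluster (1.09, 1.07 to 1.11) and the Fcna cluster (1.04, 1.00 to 1.07), whereas Fth1 was higher in all 4. The summed ferritin share of MO/MPs was therefore nearly level while its make-up differed. Over whole libraries Fth1 was at 10964 and 11372 CPM and Ftl1 at 8597 and 7017 CPM.

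The ratio of Fth1 to Ftl1 UMIs is read between clusters and libraries only, since neither count is scaled to length. In MO/MPs it was 1.15 (1.15 to 1.16) in Ctrl and 1.504 (1.493 to 1.515) in dKO. The Apoe cluster was at 1.23 in Ctrl and 1.59 in dKO, the Spp1 cluster at 0.829 and 1.105 and the Fcna cluster at 1.35 and 1.64, whereas the monocyte-like Slpi cluster was at 2.23 and 2.21. Of the 21 clusters with at least 20 cells in each library, the ratio was higher in dKO with separate intervals in 11 and lower in 4, and the intervals overlapped in 6. The 4 lower clusters included the Cxcl13 FAPs (2.36 and 1.72), Selp ECs (2.62 and 1.88) and Chad tenocytes (2.99 and 2.26). The UMI ratio was below 1 in 4 clusters in Ctrl and in 1 in dKO.

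**Figure D3:**
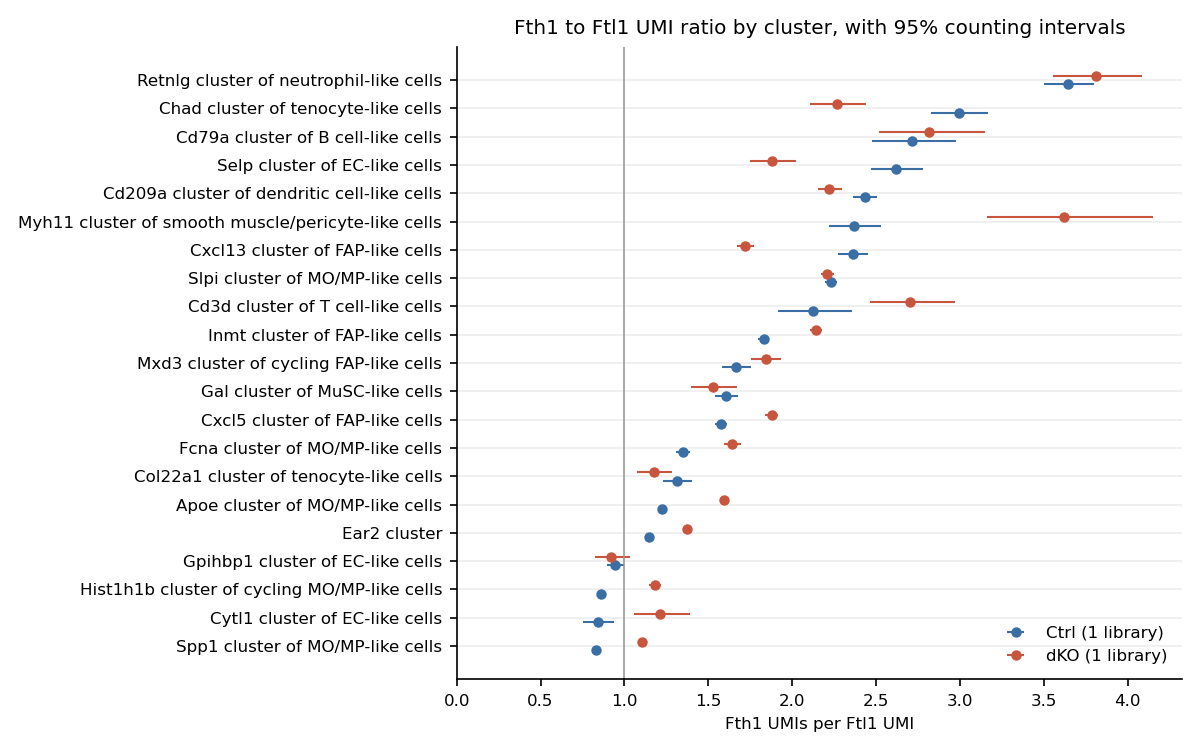
Fth1 UMIs per Ftl1 UMI (linear axis) by cluster in the Ctrl and dKO libraries, with bars for exact 95% intervals and a line at 1. The Apoe, Spp1 and Fcna clusters of MO/MPs lie higher in dKO, and the Slpi cluster is at 2.23 and 2.21.

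Both chains were higher in dKO in FAPs and ECs. In FAPs Fth1 was at 4207 CPM in Ctrl and 5339 CPM in dKO (1.27, 1.26 to 1.28) and Ftl1 at 2341 and 2698 CPM (1.15, 1.14 to 1.17). In ECs Fth1 was at 2737 and 3661 CPM (1.34, 1.28 to 1.39) and Ftl1 at 1882 and 2471 CPM (1.31, 1.25 to 1.38). With the dKO clusters weighted as in Ctrl, the EC ratios were 1.15 for Fth1 and 1.22 for Ftl1, and the FAP ratios 1.27 and 1.14. In the lymphocytes Fth1 was at 4738 and 4691 CPM in B cell-like cells and at 2790 and 3473 CPM in T cell-like cells (1.24, 1.15 to 1.34), and Ftl1 at 1746 and 1667 CPM and at 1314 and 1285 CPM. The Fth1 levels of FAPs and ECs thus lay near those of the lymphocytes, the T cell-like ratio was close to theirs, and the part of free ferritin RNA in the result was not tested. The ferritin share of EC UMIs was 0.462% in Ctrl and 0.613% in dKO, and that of FAPs 0.655% and 0.804%. The chains differed in different clusters. Ftl1 was at 1936 and 3300 CPM in Selp ECs (1.70) but at 1763 and 1799 CPM in Gpihbp1 ECs (1.02, 0.934 to 1.11), where Fth1 was at 1665 and 1659 CPM (0.996, 0.909 to 1.09). Fth1 was at 6917 and 6953 CPM in Cxcl13 FAPs (1.01) but at 4246 and 5821 CPM in Inmt FAPs (1.37).

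Neutrophil-like cells had the highest Fth1 level of any class, 29464 CPM in Ctrl and 42105 CPM in dKO (1.43, 1.38 to 1.48), with Ftl1 at 8081 and 11047 CPM (1.37, 1.27 to 1.47) in 98 and 36 cells. The 9 neutrophil markers of that class summed to 243494 CPM in Ctrl and 138647 CPM in dKO (1 of 9 higher in dKO). Its 10 MO/MP markers summed to 4918 and 5756 CPM (8 of 10 higher). The part of these markers in the result was not tested. MuSC-like cells, in which Yy1 was deleted, had the lowest Fth1 level, 2394 CPM in Ctrl and 1983 CPM in dKO (0.828, 0.778 to 0.881), and Ftl1 at 1491 and 1298 CPM (0.870). Their Fth1 ratio was 1.08 when no doublets were removed. Across 13 classes the interval lay above 1 in 8 and below 1 in 3 for Fth1, and above 1 in 6 and below 1 in 4 for Ftl1. The direction turned under at least 1 other way of processing for Fth1 in MuSC-like and tenocyte-like cells and for Ftl1 in MuSC-like, dendritic cell-like and cycling MO/MP-like cells. The ferritin chains were thus neither uniformly higher nor uniformly lower in dKO.

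Slc40a1, the iron exporter ferroportin, was scarce and was lower in dKO in FAPs and MO/MPs, and the interval of its ratio held 1 in the other 3 classes that had UMIs in both libraries. No ratio was formed in 8 of the 13 classes. In FAPs it was at 104 UMIs (7.04 CPM) in Ctrl and 49 UMIs (3.21 CPM) in dKO, a ratio of 0.455 (0.317 to 0.646). In MO/MPs it was at 104 UMIs (8.89 CPM) and 36 UMIs (4.95 CPM), a ratio of 0.557 (0.370 to 0.821). The whole library held 332 UMIs in Ctrl (8.14 CPM) and 122 in dKO (4.01 CPM). Among MO/MPs the Apoe cluster had 62 UMIs in Ctrl and 10 in dKO (0.259, 0.118 to 0.508), and the Fcna cluster, with the highest level of the class, had 38 and 20 (43.3 and 26.3 CPM, 0.608, 0.335 to 1.07). Among FAPs the Inmt cluster had 78 and 36 UMIs and the Cxcl5 cluster 25 and 8. The Spp1 MO/MPs (3 and 6 UMIs) and Cxcl13 FAPs (1 and 5 UMIs) had more in dKO, with ratio intervals that held 1.

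Slc40a1 was highest in neutrophil-like cells, where it did not differ beyond counting error, at 177 CPM (63 UMIs) in Ctrl and 173 CPM (16 UMIs) in dKO (0.977, 0.527 to 1.71). Tenocyte-like cells followed at 23.4 and 21.4 CPM. After thinning, 23.6% of 55 Ctrl and 25.0% of 16 dKO neutrophil-like cells, 6.94% and 6.33% of tenocyte-like cells, 1.37% and 0.275% of FAPs, and 1.36% and 1.33% of MO/MPs had a Slc40a1 UMI. The lower dKO level of MO/MPs was thus not seen in the share of cells at matched depth, and the FAP shares rest on 14 and 3 cells. B cell-like and T cell-like cells had 0 UMIs in both libraries, which allows up to 7.38 CPM in Ctrl and 6.19 CPM in dKO T cell-like cells at 3 counts. The FAP and MO/MP levels thus lay near the limit of what these lymphocyte classes could show. Ctrl ECs set a lower limit, with 0 UMIs, which allows up to 1.12 CPM at 3 counts. Both Ctrl levels lay above it. In dKO ECs had 1 UMI (1.15 CPM, 0.0290 to 6.39), and that interval held both dKO levels. Neutrophil markers moved with Slc40a1 in FAPs and MO/MPs. The summed level of 9 markers was 40.9 CPM in Ctrl and 7.59 CPM in dKO FAPs and 220 and 108 CPM in MO/MPs. It was about as high in Ctrl ECs, with 0 Slc40a1 UMIs, as in Ctrl FAPs. The part of these markers in the result was not tested. Neutrophil-like cells were 2.44% of Ctrl and 1.17% of dKO cells and held 19.0% and 13.1% of all Slc40a1 UMIs.

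Trf, transferrin, the plasma iron carrier that muscle cells and macrophages also transcribe, was chiefly an MO/MP transcript. Of all Trf UMIs, 78.3% in Ctrl and 73.1% in dKO lay in that class. Its level was 345 CPM in Ctrl and 308 CPM in dKO (0.893, 0.847 to 0.940). The Fcna cluster (577 and 526 CPM) and the Apoe cluster (523 and 437 CPM, ratio 0.835, 0.785 to 0.889) were the highest. The interval lay below 1 in 3 classes, which were MO/MPs, dendritic cell-like cells at 166 and 101 CPM (0.605) and cycling MO/MPs at 95.3 and 50.3 CPM (177 and 30 UMIs, 0.528), and above 1 in none of the 11 classes with UMIs in both libraries. Schwann cell-like cells, left out of these counts for having under 20 cells in dKO, held 11 Trf UMIs in 33 Ctrl cells and 35 in 19 dKO cells (5.24, 2.60 to 11.4). In FAPs Trf was at 26.7 and 27.0 CPM. After thinning, 37.6% of Ctrl and 35.7% of dKO MO/MPs had a Trf UMI, against 1.02% and 0 of 71 B cell-like cells.

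Tfrc, the transferrin receptor whose mRNA carries the 4 hairpins shown above, was low in most classes, and of 13 the interval of its ratio lay above 1 in 2 (FAPs and cycling FAPs) and below 1 in 3 (cycling MO/MPs, MuSC-like and tenocyte-like cells). In FAPs it was at 71 UMIs (4.81 CPM) in Ctrl and 119 UMIs (7.79 CPM) in dKO (1.62, 1.198 to 2.21). The Cxcl13 cluster held 6 and 31 of these UMIs (3.77, 1.55 to 11.1) and the Cxcl5 cluster 43 and 71 (1.51, 1.02 to 2.26). The Inmt cluster, which held most FAPs, had 22 and 17 (0.824, 0.411 to 1.62). After thinning to 2000 UMIs, 8 of 1023 Ctrl FAPs (0.782%) and 15 of 1089 dKO FAPs (1.38%) had a Tfrc UMI, with overlapping intervals. In cycling MO/MPs Tfrc was at 130 UMIs (70.0 CPM) and 9 UMIs (15.1 CPM) (0.216, 0.0964 to 0.422), and at 126 and 9 UMIs without the Camp and Ngp cells (0.205). At a matched depth of 2000 UMIs, 11.7% of 103 Ctrl and 8.82% of 34 dKO cells of that class had a Tfrc UMI, with overlapping intervals. The 8 erythroid markers moved with Tfrc there, at 65.7 CPM (122 UMIs) in Ctrl and 1.68 CPM (1 UMI) in dKO, as did the neutrophil markers given above, and their part in the result was not tested. Cycling FAPs held 5 and 26 UMIs (4.66, 1.76 to 15.6) and tenocyte-like cells 16 and 2 (0.223, 0.0248 to 0.948). In MO/MPs it was at 25.0 and 28.2 CPM (1.13, 0.941 to 1.36) and in ECs at 37 and 6 UMIs. These are few molecules, and the 3 classes with the highest level in Ctrl, B cell-like cells (93.2 and 77.4 CPM), cycling MO/MPs and MuSC-like cells, did not differ from each other beyond their intervals. In MuSC-like cells Tfrc was at 154 UMIs (66.7 CPM) and 25 UMIs (40.4 CPM) (0.606, 0.380 to 0.929), and 9 of the 25 dKO UMIs came from 1 cell. At a matched depth of 2000 UMIs, 7.14% of 112 Ctrl and 10.0% of 30 dKO MuSC-like cells had a Tfrc UMI, with overlapping intervals. The summed markers of cycling cells (944 and 504 CPM) and of FAPs (927 and 459 CPM) were lower in dKO MuSC-like cells and those of erythroid cells higher (3.46 and 64.6 CPM), and their part in the result was not tested. MuSC-like cells held 18.9% of the Tfrc UMIs of the Ctrl library and 2.92% of its cells.

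**Figure D4:**
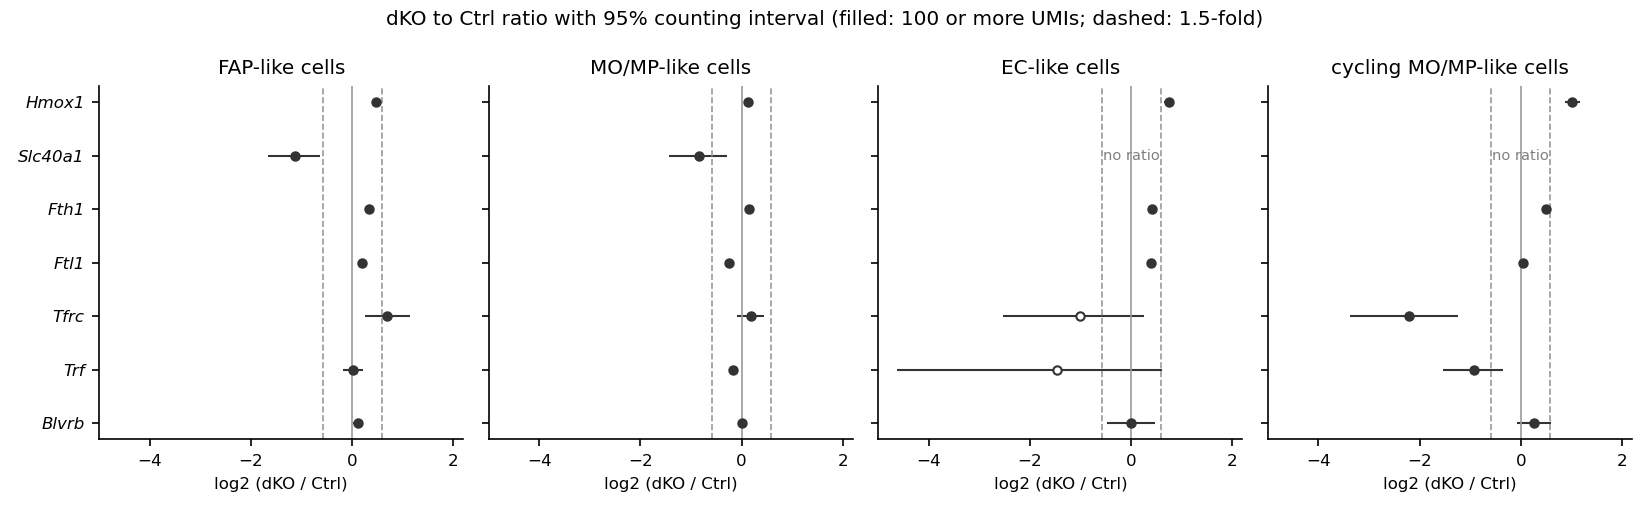
Log2 ratio of dKO over Ctrl level for each of the 7 genes, with bars for exact 95% intervals and a line at 0. Only FAPs, MO/MPs, ECs and cycling MO/MPs are shown. The Hmox1 ratio is above 0 in ECs, FAPs, MO/MPs and cycling MO/MPs, and the Slc40a1 ratio is below 0 in FAPs and MO/MPs.

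Counts of members past 1.5-fold were set beside those of all genes with at least 100 UMIs over both libraries in a class. In FAPs 1 of 7 members was higher (Tfrc) and 1 lower (Slc40a1), where 2.6% of 10242 genes were higher and 3.06% lower. In MO/MPs 0 of 7 were higher and 1 was lower (Slc40a1), where 4.67% of 8454 genes were higher and 2.98% lower. In ECs 1 of the 4 members tested was higher (Hmox1) and 0 lower, where 4.59% of 4753 genes were higher and 7.36% lower. In cycling MO/MPs 1 of 6 was higher (Hmox1) and 2 were lower (Tfrc and Trf), where 8.33% of 3422 genes were higher and 6.9% lower. The median log2 ratio of the members tested was 0.21 against -0.06 over all genes in FAPs, 0.01 against 0.00 in MO/MPs, 0.41 against -0.03 in ECs and 0.15 against 0.04 in cycling MO/MPs. Each class therefore held 1 to 3 members past the fold. With the dKO clusters weighted as in Ctrl, Hmox1 in ECs (1.49) and Tfrc in FAPs (1.49) no longer passed it.

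The wider iron and heme genes, 72 in 7 lists, were counted by the same rule. In FAPs 4 of 54 were higher and 0 lower, in MO/MPs 3 of 51 higher and 2 lower, in ECs 4 of 25 higher and 3 lower, and in cycling MO/MPs 3 of 27 higher and 3 lower. Over all genes tested the shares higher and lower were 2.6% and 3.06% in FAPs, 4.67% and 2.98% in MO/MPs, 4.59% and 7.36% in ECs, and 8.33% and 6.9% in cycling MO/MPs. In FAPs the largest was Hp, haptoglobin, the plasma protein that binds free hemoglobin, at 8.87 CPM (131 UMIs) in Ctrl and 71.3 CPM (1089 UMIs) in dKO (8.04, 6.70 to 9.71), with 146 of the dKO UMIs in 1 cell. The other FAP genes were the Nrf2 targets Srxn1 (1.75) and Txnrd1 (1.57) and Lcn2, a siderophore-binding protein (1.56). In MO/MPs Slc11a2, the metal importer DMT1, was at 468 and 471 UMIs (1.62 on the CPM scale) and Slc39a14, a zinc and iron importer, at 17.9 and 33.0 CPM (1.85), whereas Abcg2, which exports porphyrins (0.395), and Lcn2 (0.494) were lower. Lcn2 is also a neutrophil granule gene, the 9 neutrophil markers were at 220 and 108 CPM in MO/MPs, and their part in the result was not tested. In ECs Cp, the ferroxidase ceruloplasmin, was at 80.7 and 182 CPM (2.26), and Gclm (1.63), Srxn1 and Bola3 were higher, while Ncoa4, the receptor that sends ferritin to autophagy, was at 87 and 16 UMIs (0.564) and Glrx5 at 0.653.

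Alas2, the red cell enzyme of heme synthesis, passed the fold in MO/MPs with 45 and 135 UMIs, of which 107 came from 1 dKO cell, and in ECs with 111 and 22 UMIs, of which 89 and 22 came from 1 cell each. The summed level of 8 erythroid markers was 8.03 and 36.1 CPM in MO/MPs and 60.6 and 12.6 CPM in ECs, so it moved with Alas2, and its part in the result was not tested. In FAPs those markers stood at 0.609 and 1.57 CPM.

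The Bach1 and Nrf2 list, which holds the regulators named above, had a median log2 ratio of 0.35 over 8 tested genes in FAPs, 0.26 over 10 in MO/MPs, 0.41 over 8 in ECs and 0.37 over 9 in cycling MO/MPs, where the medians over all genes were -0.06, 0.00, -0.03 and 0.04. Bach1 itself was at 192 and 233 CPM in FAPs (1.21), 287 and 389 CPM in MO/MPs (1.36) and 214 and 258 CPM in ECs (1.21). Nfe2l2 was at 125 and 163 CPM in FAPs (1.301), 236 and 306 CPM in MO/MPs (1.296) and 319 and 353 CPM in ECs (1.11). Of the list 2 genes in FAPs, 0 in MO/MPs, 2 in ECs and 3 in cycling MO/MPs were higher by 1.5-fold, where 2.6%, 4.67%, 4.59% and 8.33% of all genes were, and 0 were lower in any of the 4. Hmox2, the constitutive heme oxygenase, was lower in dKO FAPs (37.0 and 26.9 CPM, 0.728) and at 101 and 123 CPM in MO/MPs (1.21). Slc48a1, which moves heme out of the phagolysosome, was at 108 and 87.4 CPM in MO/MPs (0.808) and 26.0 and 27.0 CPM in FAPs (1.04). Cd163 was at 28.9 and 33.2 CPM in MO/MPs (1.15, 0.969 to 1.36), and in the Fcna cluster at 306 and 275 CPM.

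Levels of other genes that followed each member over the 23 clusters, both libraries summed, were ranked by Pearson correlation of log2(CPM + 1) among 12557 genes. The clusters share libraries and depth, so the values describe a pattern and have no p. Ftl1 was most like Psap (r = 0.947), Arl11 and Tbxas1 (0.932 each), and Fth1 most like Aph1c (0.903), Il1a and Clec7a (0.883 each). Hmox1 was most like Adam15 (0.864), Tlr4 (0.850) and Fnip2 (0.845), Trf like Scamp2 (0.882), Aph1c (0.863) and Cebpa (0.847), and Blvrb like Pla2g15 (0.881) and Clcn7 (0.837). Tfrc was most like Rbm38 (0.795), Wdr76 (0.777) and Cpsf6 (0.747), and Slc40a1 like Arsg (0.737), Dhrs7 (0.696) and Nlrx1 (0.691). Among the members themselves Fth1 and Trf stood at 0.861, Fth1 and Ftl1 at 0.836, Hmox1 and Ftl1 at 0.597 and Hmox1 and Tfrc at -0.386.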

How the data were processed

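The authors deposited raw UMI counts per gene and cell barcode for each library as 10x matrices. The submitters' processing notes name Cell Ranger 7.0.0, Seurat 4.3.0, Cufflinks and the build mm10, whereas the matrix headers give version 3.0.2. The tables hold 0 mitochondrial genes, so no filter on them was applied. Cells with at least 500 genes were kept (4335 Ctrl and 3329 dKO, of 4527 and 3483 barcodes), and the 7.5% with the highest Scrublet scores were removed in each library, since its own threshold marked 4 and 14 cells. Seurat 5.3.0 in R 4.3.3 joined the libraries by anchors (2000 variable genes, 40 dimensions), and clusters were taken at a resolution of 0.8. Classes are called "like" a type from listed markers. The rule that combined enriched with leading markers was set after the clusters were seen, and the Ear2 cluster, with 0 MO/MP markers among its 10 leading genes, was left unnamed, and because the names were rebuilt here they may differ from those of the study. Clusters were made with these genes among all others. The scripts were tested on simulated data. Levels, intervals and ratios were computed in Python 3.11.15 with scanpy 1.11.5 and scipy 1.17.1.

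The genes named were all 7 members in every class, the wider-list genes past 1.5-fold at 100 UMIs in FAPs, MO/MPs or ECs, 7 genes given whatever their value (Slc48a1, Hmox2, Ncoa4, Slc11a2, Bach1, Nfe2l2 and Cd163), and the 3 nearest genes of each member, of which 1 is not reported here. The members and lists were chosen with earlier results of these data known. Hairpins were read from GENCODE transcripts of GRCm38. Classes under 20 cells in a library (Schwann cell-like and lymphatic EC-like) were left out of the comparisons. Another 16 ways of processing were tried, and their effect is given below.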

Additional observations from a re-analysis of the deposited data

Results flagged for a closer look

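Several members differed in opposite directions between classes, with intervals of the log2 ratio on opposite sides of 0. These differences between classes were not tested, since each class has 1 library a group. Hmox1 had a log2 ratio of 1.02 in cycling MO/MPs and -0.83 in smooth muscle/pericyte-like cells, which was 0.309 with no doublets removed. Fth1 had one of 0.52 in neutrophil-like cells and -0.27 in MuSC-like cells, which was 0.117 with no doublets removed. Ftl1 had one of 0.45 in neutrophil-like cells and -0.44 in smooth muscle/pericyte-like cells. In the latter class the summed EC markers were at 7337 CPM in Ctrl and 4108 CPM in dKO, and their part in the result was not tested. Tfrc had one of 0.70 in FAPs and -2.21 in cycling MO/MPs. The dKO library held 36 cycling MO/MPs, 38 smooth muscle/pericyte-like cells, 36 neutrophil-like cells and 30 MuSC-like cells, so the values in those classes rest on few cells of 1 pool of mice. The FAP value rests on 71 and 119 UMIs, in 1086 Ctrl and 1143 dKO cells.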

How the results depend on the processing

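Under 16 other ways of processing, 3 of them chosen after seeing the data, 701 of 754 ratios kept their sign. The log2 ratio of Hmox1 in MO/MPs (0.13) was 0.175 with no doublets removed and 0.092 at a resolution of 0.4. In FAPs (0.47) it was 0.628 at a resolution of 0.4, 0.534 when scaled to the median ratio and 0.671 as the mean of each cell's CPM, and in ECs (0.74) that mean gave 0.631. With the dKO clusters weighted as in Ctrl it was 0.018 in MO/MPs, 0.408 in FAPs and 0.575 in ECs. The members past 1.5-fold then numbered 0 in ECs, against 1, and 1 in FAPs, against 2. The share of all genes past the fold under that weighting was not computed. Members past the fold in ECs numbered 3 at 1.3-fold, 0 at 2-fold and 2 with genes of at least 20 UMIs, against 1. Of all 9086 genes with at least 20 UMIs in ECs, 7.83% were higher and 16% lower by 1.5-fold. At 2-fold the members past the fold numbered 1 in FAPs, against 2, and 0 in MO/MPs, against 1. The shares of all genes past 1.3-fold and 2-fold were not computed, so these counts have no background beside them. With no doublets removed the sign turned for Fth1 in MuSC-like (0.117) and tenocyte-like cells (0.095) and for Hmox1 in smooth muscle/pericyte-like cells (0.309). With cells of at least 200 genes and 1000 UMIs it turned for Hmox1 in smooth muscle/pericyte-like cells (0.098) and Ftl1 in dendritic cell-like cells (-0.018). Ftl1 in dendritic cell-like cells was also -0.004 scaled to the median ratio and -0.069 as the mean of cells. Ftl1 in cycling MO/MPs was -0.141 with no integration, -0.071 as the mean of cells, -0.084 without the top cell and -0.066 without the Camp and Ngp cells. The mean of cells gave 0.204 for Hmox1 in the Ear2 cluster and 0.009 for Ftl1 in MuSC-like cells. The cause was not tested. No paired analysis was possible because each group has 1 library.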
